A study of Arabidopsis thaliana with 16 samples.

Results

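Gene activity in bent-cotyledon zygotic embryos was compared between the ascorbate-deficient mutant *vtc2* and the wild type (WT). The comparison uses the 4 of the 16 arrays in the series whose labelled stage is the zygotic embryo, 2 from *vtc2* and 2 from WT. The mutant embryos came from a homozygous T-DNA insertion line of *VTC2* (allele *vtc2-5*) and the WT embryos from plants without the insertion. Both genotypes are *Arabidopsis thaliana* of ecotype Col-0, were raised in long days in the same kind of growth cabinet, and provided embryos that had not been cultured and had met no 2,4-D. Embryos were dissected by hand, and their age in days and the number pooled per array are not given in the sources used here. The labels call the 2 arrays of a genotype biological replicates. The mutant is 1 insertion line, so that the loss of *VTC2* and anything else particular to that line cannot be told apart. The other 12 arrays hold tissue in culture, namely explants after 7 d (D7I) and 14 d (D14I) of induction and mature somatic embryos, 2 arrays for each genotype and stage.

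*VTC2* encodes GDP-L-galactose phosphorylase, the enzyme of the committed step of ascorbate synthesis. Ascorbate detoxifies hydrogen peroxide through ascorbate peroxidase and is a cofactor of many oxygenases, among them enzymes that hydroxylate proline in cell wall proteins. The bent-cotyledon embryo is a green, photosynthetic embryo early in maturation, when seed storage proteins, oil and the first late embryogenesis abundant proteins accumulate.

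Each value is a signal, the intensity of a probe set on a linear scale on which the 2% trimmed mean of every array is 500. The 4 arrays were alike in overall signal, with medians of 148 and 159 in *vtc2* and 152 in both WT arrays. Probe sets above a signal of 30, below which signals are called weak here, made up 69.2 and 71.4% in *vtc2* and 72.8 and 72% in WT. The tissue check rested on seed storage and oil body genes, because 0 of the 11 embryo markers chosen had a probe set paired with 1 gene. Genes are called measured here where the annotation used paired a probe set with that gene alone. Others were left out, also where the array holds a probe set for them. The storage protein gene *PAP85* had signals of 17258 and 21975 in *vtc2* and 25339 and 15940 in WT, and *OLE3*, for an oleosin of the oil body surface, had 21496 and 27317 in *vtc2* and 29445 and 24361 in WT. Both genotypes thus carried strong embryo transcripts, and the ranges of the genotypes overlapped. The annotation used paired no probe set with *VTC2* alone, so the labels were not checked through the mutated gene.

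Single arrays of the 2 genotypes could be closer to each other than arrays of 1 genotype. Of the 14938 probe sets with a signal of at least 30 in all 4 arrays, 286 (1.91%) were at least 2-fold apart between *vtc2* replicate 1 and WT replicate 2. This was the smallest number of the 6 pairs of arrays. The 2 *vtc2* arrays were 2-fold apart at 411 probe sets (2.75%) and the 2 WT arrays at 612 (4.1%). The other pairs of 1 *vtc2* and 1 WT array gave 601 to 728. The correlation of log2 signals over all probe sets, which all come from the same arrays, was 0.959 within *vtc2*, 0.952 within WT and 0.950 to 0.962 between genotypes.

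**Figure D1:**
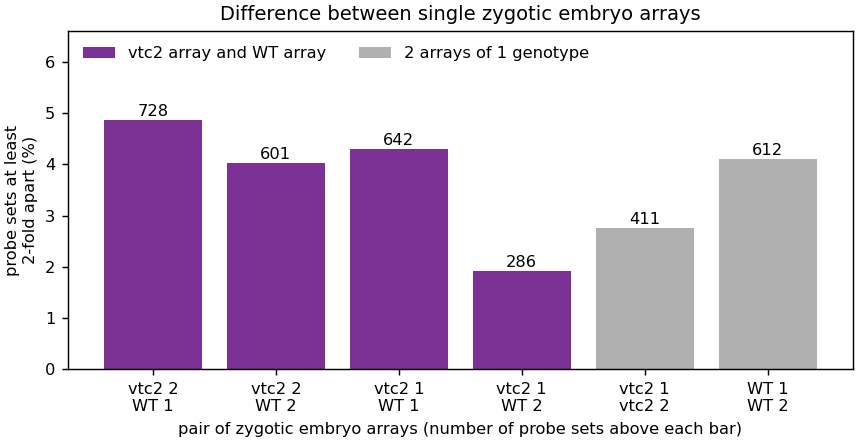
Share of probe sets at least 2-fold apart (y axis, percent of the 14938 probe sets with a signal of at least 30 in all 4 arrays) for each pair of zygotic embryo arrays (x axis), with the number of probe sets above each bar. Pairs of a *vtc2* and a WT array range from 286 to 728 probe sets, and the pairs of 1 genotype lie between these, at 411 and 612.

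Few transcripts passed as different between *vtc2* and WT zygotic embryos. Of 22746 probe sets tested, 2 were higher and 6 lower in *vtc2*, 0.0352% of all (0.00879% higher and 0.0264% lower), at an adjusted p under 0.05 from limma and a difference of at least 2-fold. At an unadjusted p under 0.05 there were 1558 (6.85%). The genotypes did not overlap, so that both *vtc2* arrays lay on one side of both WT arrays, at 3584 probe sets higher in *vtc2* (15.8%) and 3962 lower (17.4%). The median log2 difference over all probe sets was -0.01. Most 2-fold differences concerned weak transcripts: among the 6608 probe sets with a mean signal below 30, 740 were at least 2-fold higher and 1547 at least 2-fold lower in *vtc2*, with a median of -0.27. Over all probe sets these shares were 3.69% and 8.22%. Among the 3583 probe sets with a mean signal of 1000 or more, the numbers were 11 and 25, with a median of 0.00. Where all 4 arrays reached 30, the genotypes did not overlap at 2824 probe sets higher (18.9%) and 2085 lower (14%) in *vtc2*, and 52 probe sets (0.348%) were at least 2-fold higher and 134 (0.897%) at least 2-fold lower in *vtc2*.

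**Figure D2:**
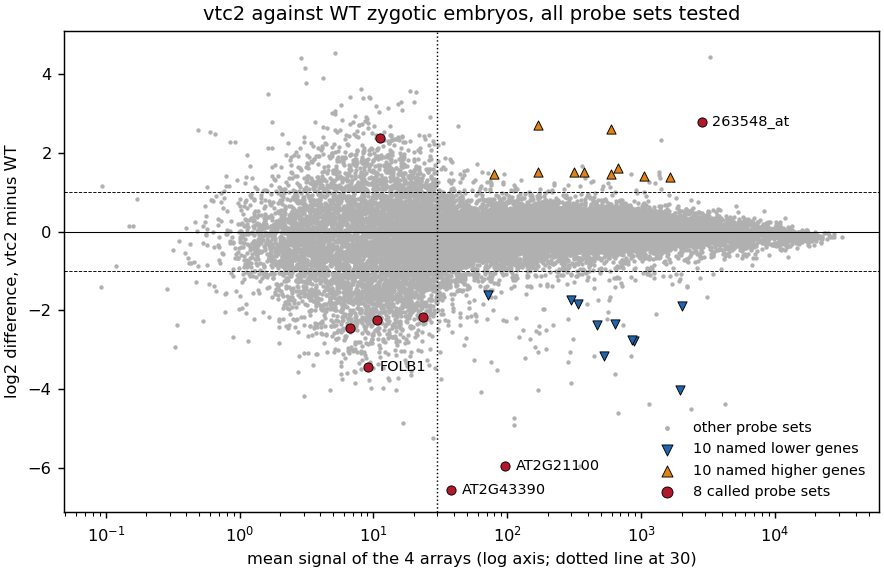
Log2 difference of *vtc2* minus WT zygotic embryos (y axis) against the mean signal of the 4 arrays (x axis, log scale) for 22746 probe sets, with dashed lines at 2-fold. Red circles are the 8 probe sets called, 5 of them with a mean signal below 30, and triangles are the 10 genes each way with the largest difference among those at 30 or more in all 4 arrays, without overlap. The 4 labelled points have the lowest adjusted p.

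The called transcript with a clear signal in all 4 arrays was higher in *vtc2*. Probe set 263548_at, which has no gene name here, had signals of 4898 and 4955 in *vtc2* and 815 and 636 in WT. The *vtc2* arrays agreed closely and lay far above both WT arrays. The difference was 2.77 on the log2 scale, with a standard error of 0.19 (adjusted p = 0.00195 from limma). The other called transcript higher in *vtc2* was *AT1G29180*, at 19.2 and 18.5 in *vtc2* and 4.37 and 2.97 in WT, all of them weak signals (log2 difference 2.38, standard error 0.28).

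Among the 6 called transcripts lower in *vtc2*, *AT2G21100* and *AT2G43390* had clear signals in both WT arrays and weak ones in both *vtc2* arrays. *AT2G21100*, of the dirigent protein family that steers the coupling of monolignols, had signals of 2.37 and 2.5 in *vtc2* and 303 and 74.9 in WT. *AT2G43390* had 0.459 and 1.14 in *vtc2* and 107 and 43.2 in WT. For both, the WT arrays were more than 2-fold apart. The log2 differences were -5.95 (standard error 0.53) and -6.56 (standard error 0.50), with adjusted p of 0.00418 and 0.00203 from limma. The sizes depend on signals near 0 in *vtc2*: with 30 added before log2 the differences were -2.53 for *AT2G21100* (adjusted p = 0.0686 from limma) and -1.70 for *AT2G43390* (0.0461). *FOLB1*, for a dihydroneopterin aldolase of folate synthesis, had 1.74 and 1.33 in *vtc2* and 13.6 and 20.0 in WT (log2 difference -3.44, standard error 0.29). All 4 signals were weak, and the difference was -0.57 (adjusted p = 0.478 from limma) with 30 added and -0.90 (0.295) with 16 added. Its paralogue *FOLB2* had a clear signal in all 4 arrays, at 402 and 442 in *vtc2* and 477 and 339.7 in WT, with overlapping genotypes. Of the 4 folate synthesis genes measured, 1 was called and the median log2 difference was 0.02.

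The remaining called transcripts lower in *vtc2* were also weak in the mutant. *AT4G37295* had 7.67 and 9.25 in *vtc2* and 32.4 and 44.6 in WT, and *AT1G13610*, for a protein of the alpha/beta-hydrolase superfamily, had 3.49 and 3.66 in *vtc2* and 23.3 and 12.5 in WT. Probe set 266752_at, without a gene name here, had 1.89 and 2.25 in *vtc2* and 12.9 and 9.72 in WT. Their log2 differences were -2.17, -2.25 and -2.44, with adjusted p of 0.0365, 0.0365 and 0.0402 from limma. The calls of 263548_at, *AT2G43390*, *AT2G21100* and *FOLB1* held when any 1 array was left out, but quantile normalization ended that of *FOLB1* (adjusted p = 0.0921 from limma). It also ended those of *AT1G13610*, *AT4G37295*, *AT1G29180* and 266752_at (0.0909 to 0.0971). *AT1G13610* and *AT1G29180* lost theirs without *vtc2* replicate 1 (adjusted p = 0.0682 from limma for each) or replicate 2 (0.0507 for each). *AT4G37295* lost it without *vtc2* replicate 1 (0.0811) or WT replicate 2 (0.0502), and 266752_at without *vtc2* replicates 1 and 2 in turn (0.094 and 0.0502) or WT replicate 1 (0.0989). With 30 added to every signal before log2, only 263548_at (log2 difference 2.72) and *AT2G43390* of the 8 kept their calls. A fit of the 4 zygotic embryo arrays alone called 0 probe sets, with 1175 at an unadjusted p under 0.05.

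**Figure D3:**
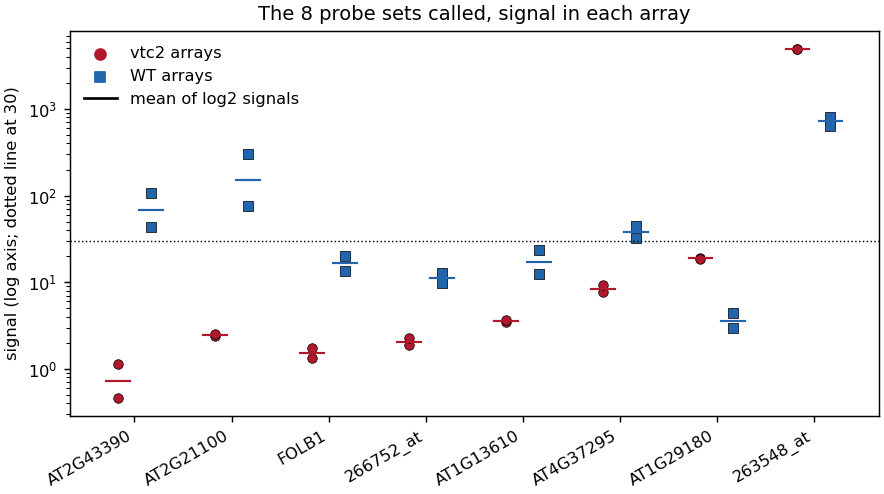
Signals of the 8 called probe sets (y axis, log scale) in the 2 *vtc2* arrays (red circles) and the 2 WT arrays (blue squares), with bars at the mean of the log2 signals. Only 263548_at is far above a signal of 30 (dotted line) in all 4 arrays.

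Genes with a clear signal in all 4 arrays are described next by their values, since 263548_at was the one call among such probe sets. Of the probe sets with all 4 arrays at 30 or more, 463 (3.1%) were higher and 337 (2.26%) lower without overlap at an unadjusted p under 0.05. Of these, 45 and 74 differed at least 2-fold, and 28 and 38 of them have a gene name here. In RNA of whole embryos, fewer cells of a type and less RNA per cell cannot be told apart. The 10 named genes with the largest difference each way follow, of which 0 were called in either direction.

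The largest difference in this group belonged to *AT5G09480*, for a hydroxyproline-rich glycoprotein, with signals of 74.2 and 458 in *vtc2* and 5639 and 1603 in WT. Both *vtc2* arrays were below both WT arrays, but the *vtc2* arrays differed 6.18-fold and the WT arrays 3.52-fold from each other. The log2 difference was -4.03 (standard error 0.87, adjusted p = 0.23 from limma). *AT4G38080*, another hydroxyproline-rich glycoprotein gene and one that the study singled out, had 26.6 and 283 in *vtc2* and 3241 and 986 in WT (log2 difference -4.37, standard error 1.42, adjusted p = 0.53 from limma). It falls outside the group only because 1 *vtc2* array was below 30. The order of the arrays was the same for both genes, with WT replicate 1 highest and *vtc2* replicate 1 lowest.

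Genes for lipid transfer proteins and a lipase followed. *AT2G48130* (*LTPG15*), for a glycosylphosphatidylinositol-anchored lipid transfer protein, had 51.4 and 250.1 in *vtc2* and 1285 and 273 in WT. *AT3G22620*, of the same protein family, had 52.4 and 599 in *vtc2* and 2175 and 690.0 in WT, and the GDSL lipase gene *AT2G23540* had 55.5 and 127 in *vtc2* and 1583 and 361 in WT. In *LTPG15* and *AT3G22620* the second arrays of the genotypes nearly met, while the first arrays were far apart. The log2 differences were -2.38, -2.79 and -3.17, with standard errors of 0.89, 0.91 and 1.21. The adjusted p from limma was 0.622, 0.542 and 0.632. Without *vtc2* replicate 2, *AT3G22620* was called (log2 difference -4.55, adjusted p = 0.0306 from limma).

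The next genes encode proteins of other families. *AT1G19900*, which encodes a protein related to glyoxal oxidase, had 71.5 and 396 in *vtc2* and 2450 and 523 in WT (log2 difference -2.75, standard error 1.03). *AT4G17280*, for an auxin-responsive family protein, had 75.1 and 405 in *vtc2* and 1568 and 499 in WT (-2.34). The cupredoxin gene *AT1G72230* had 63 and 226 in *vtc2* and 652 and 248 in WT (-1.75). In each of these 3 the gap between the replicates of a genotype was wider than that between *vtc2* replicate 2 and WT replicate 2.

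The remaining genes of this group were the alpha/beta-hydrolase gene *AT4G36610*, the matrix metalloproteinase gene *AT4G16640* and *AT1G49960*, for a xanthine/uracil permease family protein. *AT4G36610* had 416 and 1404 in *vtc2* and 4351 and 1855 in WT, and *AT4G16640* had 93.9 and 208 in *vtc2* and 679.9 and 371 in WT. *AT1G49960* had 30.4 and 35 in *vtc2* and 159.6 and 61 in WT. Its *vtc2* arrays were close together, and it was called without WT replicate 2 (log2 difference -2.29, adjusted p = 0.0255 from limma) against -1.60 (adjusted p = 0.303) with all 4 arrays.

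In all 10 genes of this group WT replicate 1 exceeded WT replicate 2, and *vtc2* replicate 2 exceeded *vtc2* replicate 1. The same order held for 42 of the 74 probe sets at least 2-fold lower with a clear signal (56.8%), and for 1153 of all 3962 probe sets lower without overlap (29.1%). It was not particular to lower probe sets. Of the 45 at least 2-fold higher with a clear signal 23 had it (51.1%), against 997 of all 3584 higher without overlap (27.8%). Of the 10 named higher genes given below 5 had it. Replicates of the 10 genes differed 1.83-fold to 4.71-fold in WT and 1.15-fold to 11.4-fold in *vtc2*. Their median log2 difference was -2.36 with all 4 arrays, -1.46 without WT replicate 1 and -1.26 without *vtc2* replicate 1. It was -3.34 without WT replicate 2 and -3.54 without *vtc2* replicate 2. The separation of the genotypes at these genes was part of how they were chosen, and the size of the difference moved with single arrays.

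Genes of seed maturation showed the same order of replicates within each genotype. Of 11 late embryogenesis abundant genes, whose proteins protect cells during drying, 9 were higher in *vtc2* replicate 2 than in replicate 1 and in WT replicate 1 than in replicate 2. The same was true of 4 of 4 storage protein and oleosin genes, and of 6690 of the 22746 probe sets (29.4%). *LEA30*, for example, had 833 and 2452 in *vtc2* and 3187 and 1468 in WT, and the storage protein gene *CRU2* had 9662 and 16235 in *vtc2* and 18282 and 11009 in WT. In both genes *vtc2* replicate 2 was above WT replicate 2, so that the genotypes overlapped. Of the 11 late embryogenesis abundant genes 9 overlapped and 2 were lower in *vtc2* without overlap (17.4% of all probe sets were lower in this way), and 0 were called. Their median log2 difference was -0.56, and 0.07 without *vtc2* replicate 1, so that its sign rested on that array. The part of seed maturation in the lower group was not tested.

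Among genes higher in *vtc2* with a clear signal, replicates of *vtc2* differed 1.02-fold to 1.97-fold and those of WT 1.05-fold to 4.81-fold. *AT3G06780*, for a glycine-rich protein, had signals of 1008 and 1024 in *vtc2* and 144 and 195 in WT. The *vtc2* arrays agreed within 1.02-fold and both were far above WT. The difference was 2.60 on the log2 scale, with a standard error of 0.38 (adjusted p = 0.0756 from limma). *AT3G53400* had 2719 and 2013 in *vtc2* and 936 and 853 in WT (log2 difference 1.39, standard error 0.20, adjusted p = 0.0756 from limma). Both genes passed with a trended prior (adjusted p = 0.0153 and 0.0226) and with 30 added before log2 (0.0425 for each), and *AT3G53400* also without *vtc2* replicate 2 (0.0407).

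The other genes of this group had wider gaps between replicates. *AT2G35840*, for a sucrose-phosphatase of the last step of sucrose synthesis, had 843 and 1057 in *vtc2* and 620.0 and 154 in WT. *AT4G34480*, for a glycosyl hydrolase of the family of beta-1,3-glucanases, had 426 and 690.3 in *vtc2* and 196 and 187 in WT. *AT5G10770*, for an aspartic protease, had 198 and 391 in *vtc2* and 53 and 34.4 in WT. The genotypes were well separated in the last 2 genes, whereas the WT arrays of *AT2G35840* were 4.02-fold apart. The log2 differences were 1.61, 1.50 and 2.71, with standard errors of 0.53, 0.26 and 1.01 and adjusted p of 0.542, 0.117 and 0.622 from limma. Without WT replicate 1, *AT2G35840* was called (log2 difference 2.61, adjusted p = 0.0422 from limma).

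*AT2G41190*, a transporter of the amino acid transporter family, showed a like split, with 798 and 846 in *vtc2* and 559.7 and 157 in WT. Its log2 difference was 1.47, and it was called without WT replicate 1 (2.39, adjusted p = 0.0167 from limma). *AT3G59780*, for a protein with a rhodanese domain, had 1684 and 1309 in *vtc2* and 767 and 402 in WT, and *AT1G70470* had 449.9 and 475 in *vtc2* and 226 and 117 in WT. The last 2 genes of the 10 were *AT3G09860*, at 177 and 286 in *vtc2* and 36.3 and 175 in WT, and *AT5G41940*, at 84.6 and 149.6 in *vtc2* and 32.5 and 50.5 in WT. In *AT3G09860* the lower *vtc2* array and the higher WT array almost met. The median log2 difference of the 10 genes was 1.50, with 1.40 to 1.93 when 1 array was left out.

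**Figure D4:**
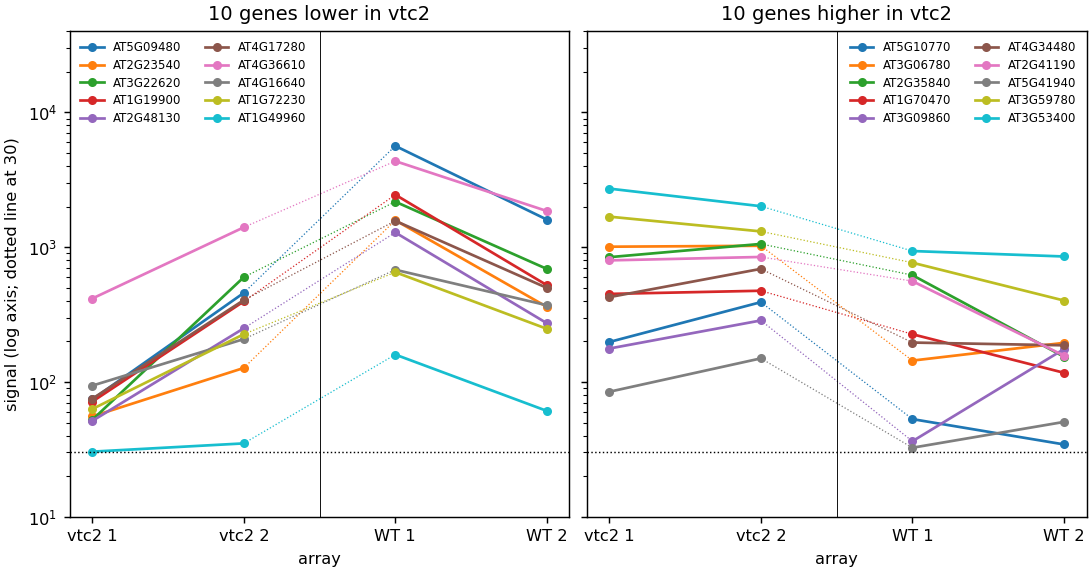
Signals (y axis, log scale) of the 10 genes lower (left) and the 10 genes higher in *vtc2* (right) with the largest differences among those at 30 or more in all arrays, in the 2 *vtc2* and the 2 WT arrays (x axis). Solid lines join replicates of 1 genotype and dotted lines the genotypes, and in all 10 lower genes they climb to *vtc2* replicate 2 and descend from WT replicate 1.

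Of the 15 genes that the study named for zygotic embryos, 6 had a probe set paired with 1 gene here, and 5 of them are given above. The study reports fold changes from these samples for others, among them *GRP2*, *GRP7* and *GRP8*. With these the annotation used paired no probe set alone, so their values cannot be given by gene here. The study chose these genes on the same samples, so their direction is no independent evidence. The sixth, *JMT*, for the methyltransferase that makes methyl jasmonate, had 132 and 63.9 in *vtc2* and 129 and 263 in WT. Its genotypes overlapped, and the difference was -1.01 on the log2 scale with a standard error of 0.69 (adjusted p = 0.887 from limma). Of 19 listed jasmonate genes 3 were measured, and 0 were called (0.0352% of all probe sets were). The defence genes *PDF1.2A* (27 and 28.6 in *vtc2*, 43.6 and 35.5 in WT) and *THI2.1* (12.8 and 21.7 in *vtc2*, 26.4 and 31.8 in WT) were lower without overlap, at weak signals in *vtc2*. Of all probe sets 17.4% were lower without overlap.

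Of the other genes of ascorbate synthesis, 5 of the 6 measured had a clear signal in all 4 arrays. Of 15 listed genes 6 were measured, 0 were called (0.0352% of all probe sets were), and 2 were higher and 0 lower without overlap (15.8% and 17.4% of all). The log2 differences ran from 0.03 to 0.55 with a median of 0.11. *GME*, whose epimerase makes GDP-L-galactose, the substrate of VTC2, had 5678 and 5515 in *vtc2* and 5483 and 5500 in WT. *VTC4*, for the phosphatase that acts just after VTC2, had 1674 and 1301 in *vtc2* and 1220 and 1527 in WT. *GalDH*, for the next enzyme, had 3559 and 4000 in *vtc2* and 3519 and 3728 in WT, and *GLDH*, for the mitochondrial enzyme that completes the pathway, had 479 and 481 in *vtc2* and 422 and 465 in WT. Their log2 differences were 0.03, 0.11, 0.06 and 0.12, each smaller than its standard error of 0.14 to 0.23. The highest of the 6 differences, 0.55 with a standard error of 0.82, was that of *VTC3*, which was weak in part, at 9.36 and 41.6 in *vtc2* and 7.48 and 24.2 in WT.

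Genes that recycle ascorbate had small differences. Of 5 measured genes of the ascorbate-glutathione cycle 0 were called (0.0352% of all probe sets were), and the log2 differences ran from -0.17 to 0.15 with a median of 0.06. The peroxidases of the plastid had 849 and 877 (*TAPX*, thylakoid) and 1596 and 1362 (*SAPX*, stroma) in *vtc2*, and 863 and 697 (*TAPX*) and 1268 and 1576 (*SAPX*) in WT. *MDAR2*, for a monodehydroascorbate reductase, was the member without overlap, at 347 and 345 in *vtc2* and 356 and 428 in WT (17.4% of all probe sets were lower in this way). The standard errors of the 5 genes were 0.16 to 0.32. Of 2 peroxiredoxin genes measured among those for superoxide and peroxide scavenging, the log2 differences were 0.21 (*2CPA*) and -0.21 (*PRXIIE*).

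Photosynthesis and fatty acid synthesis genes had strong signals in both genotypes. The 11 nuclear photosynthesis genes measured had signals of 6628 to 18579 in *vtc2* and 6979 to 18022 in WT, and log2 differences of -0.19 to 0.14 with a median of 0.01. *RCA*, for the activase of Rubisco, had 9327 and 7380 in *vtc2* and 6979 and 9168 in WT. The 5 genes of fatty acid synthesis had log2 differences of -0.09 to 0.16, among them *FATA*, for a thioesterase that releases the finished fatty acid, at 2578 and 3163 in *vtc2* and 2365 and 3262 in WT. In each of these lists 0 genes were called (0.0352% of all probe sets were). The photosynthesis list had 1 gene lower and the fatty acid list 1 gene higher without overlap, against 17.4% and 15.8% of all probe sets. The 4 reference genes measured, commonly used to scale expression, lay between -0.20 and 0.14.

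Transcripts of the plastid genome differed more between replicates than between genotypes. Of 69 plastid-encoded genes 0 were called, 0 were higher and 5 lower in *vtc2* without overlap (17.4% of all probe sets were lower in this way), and the median log2 difference was -0.31. Their median signal was 1739 and 1008 in *vtc2* and 2194 and 1401 in WT, with replicate 1 the higher in both genotypes. At 55 of the 69 (79.7%) replicate 1 exceeded replicate 2 in both genotypes, against 20% of all probe sets.

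Of the sugar and starch genes measured, *AT2G35840* included, 0 were called (0.0352% of all probe sets were). *DPE1*, for the disproportionating enzyme of starch breakdown, had 794 and 822 in *vtc2* and 451 and 731 in WT. The genotypes did not overlap, and the difference was 0.49 on the log2 scale with a standard error of 0.23 (adjusted p = 0.739 from limma). The other genes of starch breakdown measured were *PWD*, at 958 and 1200 in *vtc2* and 900.4 and 1091 in WT, and *AMY1*, at 318 and 214 in *vtc2* and 296 and 404 in WT. Both overlapped between genotypes. The sucrose-phosphate synthase gene *SPS4F* was weak in all 4 arrays, at 14.4 and 6.92 in *vtc2* and 26.5 and 15.2 in WT.

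Of the stress genes listed, few were measured and 0 were called (0.0352% of all probe sets were). For cold and dehydration 4 of 20 were measured, for heat shock 1 of 12 and for oxidative stress 2 of 9. Of 13 cold-shock and glycine-rich RNA-binding genes 2 were measured, and *GRP2*, *GRP7* and *GRP8*, which the study named, were not. Of 4 cold and dehydration genes 0 were called and 4 overlapped between genotypes, among them the dehydrin genes *COR47*, at 808 and 701 in *vtc2* and 1014 and 575 in WT, and *LTI30*, at 515 and 1005 in *vtc2* and 585 and 424 in WT. Of 5 genes that low oxygen induces, 2 were lower without overlap (17.4% of all probe sets were lower in this way), *AT1G33055*, at 3327 and 2380 in *vtc2* and 3628 and 4473 in WT, and *AT4G24110*, at 327 and 349 in *vtc2* and 457 and 396 in WT. Their log2 differences were -0.52 and -0.33, with standard errors of 0.30 and 0.31. The flavonoid gene *DFR* had 128 and 90.7 in *vtc2* and 169 and 138 in WT.

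Of 37 listed regulators of embryo development 4 were measured, and 0 were called (0.0352% of all probe sets were). *BBM*, for an AP2-type factor of embryo identity, had 401 and 356 in *vtc2* and 293 and 298 in WT, and *PHV*, for a homeodomain leucine zipper protein of organ polarity, had 862 and 847 in *vtc2* and 743 and 647 in WT. Their genotypes did not overlap (15.8% of all probe sets were higher in this way), and the log2 differences were 0.35 and 0.30, with standard errors of 0.23 and 0.19. The maturation factors *EEL* and *bZIP53* overlapped between genotypes, at 4726 and 5994 (*EEL*) and 1049 and 1337 (*bZIP53*) in *vtc2* and 6194 and 5830 (*EEL*) and 1382 and 1253 (*bZIP53*) in WT.

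Few markers of the tissues around the embryo were measured. Of 11 seed coat markers 2 were measured. *BAN*, for the anthocyanidin reductase of the inner seed coat, had 262 and 108 in *vtc2* and 200.0 and 532 in WT, and *PER36*, for a peroxidase of the mucilage cells, had 13.1 and 11.6 in *vtc2* and 22.1 and 35.4 in WT. Both were highest in WT replicate 2. The log2 difference was -0.95 for *BAN* (standard error 0.86, adjusted p = 0.938 from limma), with overlapping genotypes. It was -1.18 for *PER36* (standard error 0.44, adjusted p = 0.622 from limma), without overlap. Of all probe sets 17.4% were lower in this way. *AGL62*, the endosperm marker measured of 8, was weak in all 4 arrays, at 11.3 and 19.1 in *vtc2* and 16.4 and 18.7 in WT. Of 8 markers of suberized tissue *LTPG15* was the one measured, and it is itself 1 of the 10 lower genes, with the array order given for them. Further, of 5 root endodermis markers 0 were measured. The part of surrounding tissue in the differences was not tested.

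The MADS-box genes named AGAMOUS-like, a family of transcription factors, had mostly weak signals. Of 44 probe sets 9 (20.5%) were lower and 0 higher without overlap, against 17.4% lower and 15.8% higher among all probe sets, 0 were called, and the median log2 difference was -0.27, the same as that of all probe sets with a mean signal below 30. Among the 6608 probe sets of that signal range, 666 were higher and 1539 lower without overlap. Only 8 of the 44 reached 30 in all 4 arrays, among them *AGL18*, with 85.5 and 112 in *vtc2* and 138 and 141 in WT. The largest differences without overlap were at signals of 0.204 to 20.1, in *AGL26* (0.204 and 0.768 in *vtc2*, 5.52 and 1.43 in WT), *AT5G37420*, *AGL104* and *AGL101*. The probe sets of *AGL26* disagreed, the other having 981 and 1063 in *vtc2* and 775 and 1025 in WT.

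Cytochrome P450 and UDP-glycosyltransferase genes had members on both sides. The cytochrome P450 genes are only those found by name, and most of them are *CYP71B* genes. Of 24 cytochrome P450 genes 4 (16.7%) were higher and 8 (33.3%) lower without overlap, and of 43 UDP-glycosyltransferase genes 5 (11.6%) were higher and 12 (27.9%) lower. Among all probe sets 15.8% were higher and 17.4% lower in this way, and the shares were not tested. Only 9 of the 24 and 20 of the 43 reached 30 in all 4 arrays. Among the 6608 probe sets with a mean signal below 30, 666 were higher and 1539 lower without overlap. In each family 0 genes were called, and the medians were -0.18 and -0.06. *CYP71B22* had 17.8 and 8.74 in *vtc2* and 4.45 and 2.18 in WT, while its relative *CYP71B38* had 9.69 and 7.56 in *vtc2* and 24.8 and 28.9 in WT, so that neighbours in 1 subfamily differed in direction at weak signals. *UGT76D1* had 24.5 and 14.1 in *vtc2* and 53 and 45.1 in WT (log2 difference -1.39, standard error 0.40, adjusted p = 0.42 from limma). *CYP78A9* was the member 2-fold lower without overlap at a clear signal, with 73.2 and 156 in *vtc2* and 452 and 173 in WT (-1.39, standard error 1.13). The others of this kind, *CYP71B21*, *CYP71B30P*, *CYP71B31*, *UGT84B2*, *UGT78D3* and *UGT73C1*, were below 30 in all 4 arrays.

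Of the cell wall families, the laccase gene *LAC16* had 13.8 and 2.07 in *vtc2* and 50.6 and 26.1 in WT (log2 difference -2.77, standard error 1.04, adjusted p = 0.622 from limma). The subtilase gene *SBT4.13* had 80.3 and 73.6 in *vtc2* and 87.3 and 325 in WT, so that its difference of -1.13 rested on WT replicate 2, and *SBT4.12* had 5.17 and 10.8 in *vtc2* and 16.5 and 16.4 in WT. The extensin gene *HRGP1* had 67.6 and 50.8 in *vtc2* and 104 and 95.4 in WT. The peroxidase genes found by name are not all of the cell wall, since *TAPX* and *SAPX* of the plastid, given above, are among them. Of these 9 genes 8 overlapped between genotypes, among them *PRXR1*, at 18048 and 21230 in *vtc2* and 24661 and 19166 in WT. Of 7 WRKY genes 0 were called and 3 were higher without overlap (15.8% of all probe sets were higher in this way), among them *WRKY22*, with 423 and 449 in *vtc2* and 282 and 375 in WT.

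The probe sets called in zygotic embryos were not called in culture, where each stage has its own arrays of both genotypes. Of the 8 called probe sets, 0 were called at any of the other stages, D7I, D14I and the mature somatic embryo. Of all probe sets 2.7%, 0.022% and 3.84% were called there, so that few calls are to be expected among any 8. The difference itself was taken as the genotype effect in zygotic embryos minus the mean effect of the other 3 stages. It passed at an adjusted p under 0.05 from limma for 11 probe sets (0.0484%), of which 8 are named here. For the called *AT4G37295* and 266752_at it did not pass (adjusted p = 0.0609 and 0.0776 from limma). *AT2G43390* had a log2 difference of -6.56 before culture, then 0.02 (D7I), 0.41 (D14I) and 0.54 (mature somatic embryos), and the difference of effects was -6.88 (adjusted p = 0.00964 from limma). Mean signals of *AT2G43390* in *vtc2* and WT were 0.78 and 0.785 at D7I and 2.55 and 1.91 at D14I. Its differences there are thus between signals near 0, and a genotype effect could not be seen. In mature somatic embryos it had 38.9 and 26.6. *AT2G21100* had -5.95, -0.49, -0.07 and 1.59 over the same stages, with weak mean signals of 18.7 in *vtc2* and 26 in WT at D7I. *FOLB1* had -3.44, -0.23, 0.10 and 0.28. For these 3 genes the effect in zygotic embryos lay below that at every stage of culture.

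Probe set 263548_at had log2 differences of 2.77 in zygotic embryos and 0.50, -0.19 and 0.67 in the cultured stages in turn. Its mean signal in culture was 7663 to 15321 in both genotypes, against 4926 ± 40.1 in *vtc2* zygotic embryos and 726 ± 126 in WT zygotic embryos (SD, n = 2 each). *AT4G34480* differed in sign between stages: its log2 difference was 1.50 in zygotic embryos (not called) and -1.42 at D7I (adjusted p = 0.0254 from limma), -0.34 at D14I and -1.45 in mature somatic embryos (adjusted p = 0.019). *AT3G53400* had 1.39 in zygotic embryos and -0.56, -0.30 and -0.42 later, and its signal in culture, 173 to 295, was below that in either group of zygotic embryos. *AT1G13610* and *AT1G29180* had differences of effects of -2.70 and 2.56.

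**Figure D5:**
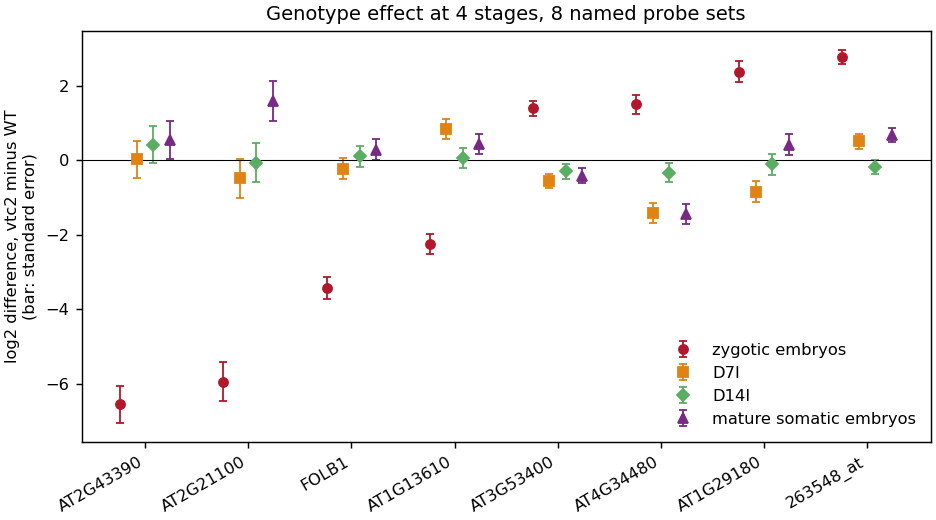
Log2 difference of *vtc2* minus WT (y axis, bars are standard errors of the fit) by stage, from the zygotic embryo through D7I and D14I to the mature somatic embryo, for the 8 named probe sets (x axis) whose effect in zygotic embryos differed from the mean of the other stages. The values of zygotic embryos, from -6.56 to 2.77, stand apart from those of the cultured stages.

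The 10 genes lower in *vtc2* zygotic embryos with a clear signal had median log2 differences of 0.65 (D7I), -0.35 (D14I) and 0.03 (mature somatic embryos) in culture, and 0 were called at any stage. *AT5G09480* averaged 266 ± 272 in *vtc2* zygotic embryos and 3621 ± 2854 in WT zygotic embryos (SD, n = 2 each), and had 916 in *vtc2* and 326 in WT mature somatic embryos. *AT2G48130* (*LTPG15*) had 526 in *vtc2* and 405 in WT somatic embryos, and *AT2G23540* had 696 in *vtc2* and 673 in WT. *AT1G19900* was weak there, with 2.97 in *vtc2* and 7.34 in WT. The differences of effects did not pass for any of the 10, with adjusted p of 0.225 for *AT5G09480* and 0.77 for *AT1G19900* from limma. Of the 10 genes higher in *vtc2* zygotic embryos, 1 was called at D7I and 2 in mature somatic embryos. These calls were those of *AT4G34480* at both stages and of *AT5G10770*, which had 77.9 in *vtc2* and 1024 in WT somatic embryos (log2 difference -3.91, adjusted p = 0.0498 from limma), the opposite of its direction in zygotic embryos.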

How the data were processed

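The authors hybridized RNA labelled from 3 μg of total RNA per sample to ATH1 arrays, and the table they deposited holds intensities on a linear scale, processed with GCOS per the labels, in a version not given in the sources used here. The 2% trimmed mean of every array is 500, so that a doubling of all transcripts would not be seen. The methods describe RMA values, which are not used here. The values are neither logged nor pooled, and 2 arrays per group limit the precision.

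The intensities were turned into log2 values with no constant added, and limma 3.58.1 in R 4.3.3 was fitted to all 16 arrays with 8 group means (8 residual and 1.62 prior degrees of freedom), so that the spread of the other stages enters each standard error. P values were adjusted by Benjamini-Hochberg over 22746 probe sets, after 64 controls of 22810 were left out. Calls required an adjusted p under 0.05 together with a 2-fold difference. By the platform annotation 13513 probe sets (59.4%) have 1 gene, 503 several genes and 8730 no gene, and 13436 were matched to RefSeq (TAIR10.1 names). Levels are not compared between probe sets. Protein families given for genes without a symbol are background knowledge, not taken from the files. In data simulated for the zygotic embryo contrast the fit called 72 of 100 probe sets changed by 2 on the log2 scale. It called 96 of 100 changed by 4, with 17 false calls in all. The share of false calls among all calls was thus above the 0.05 set for the adjusted p. Changes were placed only in probe sets with a mean signal above 30 in zygotic embryos, and the noise was independent between probe sets. The numbers therefore do not cover changes in weak probe sets, where 5 of the 8 calls lie, or deviations that genes of an array share.

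Members and lists were chosen with earlier results of these data known. Named genes are all those called, up to 10 each way with the largest difference among those at 30 or more in all 4 arrays, without overlap and with an unadjusted p under 0.05, the genes the study names, up to 4 per list at least 2-fold apart without overlap, and tissue markers. Other genes were named after their values were seen: the members of lists given as examples, and those in the closing section. Of 31 lists, 3 had no gene measured, and of 12 families searched by name, 4 had none (lipid transfer, GDSL, dirigent and glycine-rich). Nothing says whether replicates came from separate plants, so p values measure the spread between these arrays.

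Alternatives were offsets of 30 and of 16 (the second added after the data were seen), quantile normalization, filters at 30, array weights, centring on the median, other priors, the zygotic embryo arrays alone, replicate number as a block, other thresholds, multiclass SAM with 100 permutations (the test the methods name), 1 probe set per gene, and each array left out.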

Additional observations from a re-analysis of the deposited data

Results flagged for a closer look

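For 8 named probe sets the genotype effect in zygotic embryos differed from the mean effect of D7I, D14I and mature somatic embryos at an adjusted p under 0.05 from limma. The difference of effects on the log2 scale was -6.88 for *AT2G43390*, -6.30 for *AT2G21100*, -3.48 for *FOLB1* and -2.70 for *AT1G13610*, which were lower in *vtc2* zygotic embryos. It was 2.56 for *AT1G29180*, 2.45 for probe set 263548_at, 2.57 for *AT4G34480* and 1.82 for *AT3G53400*, which were higher there. The adjusted p was 0.00964 to 0.0419. *AT4G34480* and *AT3G53400* are the 2 of these whose difference within zygotic embryos was not itself called (adjusted p = 0.117 and 0.0756). The first 5 have signals below 30 in *vtc2* zygotic embryos, and *AT2G43390* was also near 0 in both genotypes at D7I and D14I. With 2 arrays per group no test for single outlying arrays was made.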

How the results depend on the processing

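The number of calls depended strongly on the setting, and the fit above gave 2 higher and 6 lower in *vtc2*. It was 3 and 2 with an offset of 30, 1 and 2 with 16 as the offset (a setting chosen once the data had been seen), 7 and 10 with a filter on group means, and 1 and 0 when all 4 arrays had to reach 30 (1017 at an unadjusted p under 0.05). Quantile normalization gave 1 and 2, array weights 1 and 3, a trended prior 10 and 17, and a trended and robust prior 11 and 22. The zygotic embryo arrays alone gave 0 and 0. With the replicate number as a block, although the numbers did not pair the arrays (correlation of deviations -0.0505 between the genotypes), 1 and 4 were called, the calls of 266752_at, *AT1G13610* and *AT1G29180* being lost (adjusted p of 0.0526 to 0.0679). An adjusted p under 0.10 gave 9 and 16, a 2-fold difference alone 839 and 1869, and multiclass SAM, whose q covers all groups, 320 and 767. Without 1 array, 4 to 31 were higher and 10 to 47 lower. Median centring, 1 probe set per gene and an adjusted p alone stayed within 1.5 times. All 8 calls remained with the filter on group means and with median centring, and 7 with either prior. The stage difference in genotype effect passed for 11 probe sets, 17 with the offset of 30, 6 with quantile normalization, 8 with the block, and 23 to 46 without 1 array. The causes were not tested. Of 861 differences of named genes under the alternatives none reversed, 802 kept their side of the threshold, 43 lost and 16 gained a call. Of 91 list medians 23 moved beyond the spread between replicates. That of the late embryogenesis abundant genes was -0.56, and 0.07 without *vtc2* replicate 1.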

Other observations

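The genes in this paragraph were chosen after their values were seen, and none was called. Values of 3 genes for DEAD-box RNA helicases, enzymes that unwind RNA, are given as single genes and not as a group. *AT2G42520* had 525 and 566 in *vtc2* and 286 and 155 in WT, *AT3G58510* had 592 and 605 in *vtc2* and 252 and 244 in WT, and *PRH75* had 636 and 1092 in *vtc2* and 427 and 406 in WT. All 4 arrays were clear and the genotypes did not overlap, with log2 differences of 1.37 for *AT2G42520* and 1.27 for *AT3G58510*. The adjusted p of the 3 genes was 0.309 to 0.593 from limma. *AT5G62440* had log2 differences of 1.29 and 0.74 at its 2 probe sets (adjusted p = 0.376 and 0.824 from limma). The histone H2B gene *HTB2* had 561 and 483 in *vtc2* and 1179 and 1150 in WT (log2 difference -1.16, standard error 0.23, adjusted p = 0.159 from limma).

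Of 26 clock genes listed 2 were measured, and 0 were called (0.0352% of all probe sets were). *GI* had 827 and 876 in *vtc2* and 586 and 745 in WT, and *RVE6* (*AT5G52660*) had 305 and 335 in *vtc2* and 228 and 265 in WT. Both were higher in *vtc2* without overlap, as were 15.8% of all probe sets. The log2 differences were 0.37 and 0.38, each with a standard error of 0.17, and adjusted p of 0.739 and 0.733 from limma.

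A further view of presence is given by genes weak in one genotype and clear in the other. Signals below 30 in both *vtc2* arrays and of at least 60 in both WT arrays occurred at 7 probe sets, and the reverse at 1. Those with a gene name were *AT2G21100*, *AT4G24140* (26.1 and 29.6 in *vtc2*, 239 and 73.8 in WT), *AT4G26490* (28.1 and 27.9 in *vtc2*, 67.8 and 66.9 in WT) and the sugar transporter gene *SWEET2* (25.9 and 29.8 in *vtc2*, 74.5 and 75.4 in WT). The reverse was *AT1G04390*, with 65.1 and 81.4 in *vtc2* and 14.3 and 9.04 in WT.

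Among probe sets without a gene name here, 252957_at had 6037 and 6452 in *vtc2* and 373 and 221 in WT (log2 difference 4.44, adjusted p = 0.12 from limma). In the other direction 253922_at had 509 and 74.5 in *vtc2* and 4924 and 3975 in WT (-4.51, adjusted p = 0.0756). These were the largest differences of unnamed probe sets with a clear signal, no overlap and an unadjusted p under 0.05. Whether probe sets without a gene name here belong to genes that the study names, such as *VTC2*, *GRP2*, *GRP7* and *GRP8*, was not determined.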
